A study of Mus musculus with 4 samples.

Results

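Glo1, Tgm2, Emp1, Sult1a1 and Cirbp are 5 genes whose transcript levels differed in the same direction between Oct4 knockout and wild-type endothelial cells in both tissues studied, the aorta and the lung. They are 5 of the 31017 gene symbols in the aortic matrices and of 31025 in the lung matrices. They were chosen by their knockout over wild-type ratios of CPM (UMIs scaled to 1e6 per library) and shares of positive cells, which moved alike in earlier results from these same libraries. Their ratios are therefore a description and were not tested. Glo1, Tgm2 and Emp1 were higher in the knockout libraries, and Sult1a1 and Cirbp were lower.

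The data were 4 single-cell RNA libraries, 1 for each of the groups KO aorta, WT aorta, KO lung and WT lung. KO cells came from 3 female EC-Oct4Δ/Δ mice, in which Oct4 (symbol Pou5f1, which encodes a factor of pluripotency) is deleted in endothelial cells, and WT cells from 2 female EC-Oct4+/+ mice. Both genotypes were described as C57/B6J, as Apoe knockout and as carrying an endothelial lineage tracer that gives eYFP, and both received Western diet, over 5 weeks. Apoe loss raises plasma cholesterol, and with such a diet it gives atherosclerosis in mice. The whole aorta and the left lung lobe were digested in the presence of 1 µg/mL actinomycin D, a blocker of transcription, and eYFP+ cells were sorted with littermates negative for Cdh5 as the gate control. Cells of several mice share a library and the labels do not separate the mice, so each group is 1 library, no difference has a replicate check, no p-value was computed, and intervals account for counting error alone. The sources used here give no age for the animals.

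The 5 genes belong to different pathways. Glo1 encodes glyoxalase 1, which with reduced glutathione converts methylglyoxal, a reactive by-product of glycolysis that modifies proteins, into a harmless product. Tgm2 encodes transglutaminase 2, which cross-links proteins of the extracellular matrix, binds GTP inside the cell and is induced by retinoic acid. Emp1 encodes epithelial membrane protein 1, a small membrane protein of the PMP22 family with 4 passes through the membrane. Sult1a1 encodes a cytosolic sulfotransferase that adds sulfate from the donor PAPS to phenols. Cirbp encodes the cold-inducible RNA-binding protein, which is induced by mild cooling and binds messenger RNA.

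The genes lie on 5 chromosomes. In GENCODE M21 on mm10, Glo1 is at chr17:30584936-30626871 on the minus strand, Tgm2 at chr2:158116402-158146436 on the minus strand and Emp1 at chr6:135362545-135383173 on the plus strand. Sult1a1 is at chr7:126672865-126676432 on the minus strand and Cirbp at chr10:80165985-80172786 on the plus strand. Each is protein-coding, and counts were per gene, so exons, introns and UTRs were not separated. Glo1 shares chromosome 17 with Pou5f1, from which it is 4879 kb away.

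Promoter sequences are shown so that the letters before the RefSeq starts of genes that moved alike can be set side by side. RefSeq promoters (GRCm38.p6) matched 4 of the 5 genes. The 250 bases before the first listed start of each are printed 5′ to 3′ on the gene's own strand, with capitals for matches to any of 5 motifs searched on both strands. The windows are chr17:30612660-30612909 (minus) for Glo1, chr6:135362681-135362930 (plus) for Emp1, chr7:126676419-126676668 (minus) for Sult1a1 and chr10:80167589-80167838 (plus) for Cirbp. These RefSeq starts differ from the GENCODE bounds given above. The Glo1, Emp1 and Cirbp windows lie inside those bounds, and the Sult1a1 window overlaps the end of its gene.
Glo1: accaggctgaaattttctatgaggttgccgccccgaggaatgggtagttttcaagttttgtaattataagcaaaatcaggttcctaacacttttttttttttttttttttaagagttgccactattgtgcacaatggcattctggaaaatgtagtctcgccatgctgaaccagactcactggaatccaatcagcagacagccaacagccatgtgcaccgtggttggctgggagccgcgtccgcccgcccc
Emp1: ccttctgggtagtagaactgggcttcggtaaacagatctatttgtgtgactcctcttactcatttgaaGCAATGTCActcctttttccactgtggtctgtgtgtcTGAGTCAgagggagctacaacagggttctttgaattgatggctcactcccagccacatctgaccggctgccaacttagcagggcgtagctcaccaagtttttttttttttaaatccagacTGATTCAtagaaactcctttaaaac
Sult1a1: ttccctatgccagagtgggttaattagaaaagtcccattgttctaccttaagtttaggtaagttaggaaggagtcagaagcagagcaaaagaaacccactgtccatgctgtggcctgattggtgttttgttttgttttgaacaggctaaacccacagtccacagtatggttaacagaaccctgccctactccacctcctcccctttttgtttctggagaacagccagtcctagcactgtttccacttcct
Cirbp: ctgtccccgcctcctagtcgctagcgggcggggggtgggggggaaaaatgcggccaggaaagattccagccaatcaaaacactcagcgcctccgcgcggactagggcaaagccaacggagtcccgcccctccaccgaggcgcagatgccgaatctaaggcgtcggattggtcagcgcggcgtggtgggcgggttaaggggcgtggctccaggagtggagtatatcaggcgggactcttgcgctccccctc
The capitals mark 3 matches, all in Emp1. One is an antioxidant response element core (letters TGACNNNGC, found here as its reverse complement GCAATGTCA, 182 to 174 bases before the start), which occurs in 10.2% of the 32851 promoter windows of the same length. The others are AP-1 sites (letters TGANTCA), read as TGAGTCA and TGATTCA, a motif found in 6.75% of all windows. The octamer bound by Oct4 (letters ATGCAAAT) was not found in any of the 4 windows printed, and 1.60% of all windows hold it. Neither the E-box (letters CACGTG, 6.02% of windows) nor the heat shock element pair (letters GAANNTTC, 6.69%) was found in them. The Cirbp window has 65.6% G and C and 23 CG dinucleotides, against medians of 52.4% and 6 over all windows. Glo1 has 46.4% and 8, Emp1 44.4% and 3, and Sult1a1 45.6% and no CG at all. A match or its absence describes these letters and says nothing of binding.

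Cells with at least 500 UMIs (unique molecular identifiers, 1 per captured transcript) and at most 15% of them from mitochondrial genes were kept. This left 1569 cells with 4418832 UMIs in the KO aorta, 404 with 989757 in the WT aorta, 508 with 1040626 in the KO lung and 775 with 1493917 in the WT lung. Median depths were 2325, 2090, 1732 and 1662 UMIs per cell in the same order, and any pair of libraries shared 0 to 2 barcodes. Pou5f1 had 1, 0, 1 and 2 UMIs, at or under the 3 counts taken as a floor in every library, and counts per gene do not show which part of a gene was deleted. Endothelial markers were detected 15 of 15 in each library and summed to 10500 CPM in the KO and 11230 in the WT aorta and to 17580 CPM in the KO and 17400 in the WT lung. Transcripts of other cells also differed. Erythroid markers summed to 1736 CPM in the KO aorta against 14870 in the WT aorta, and to 30580 CPM in the KO lung against 1208 in the WT lung, with 4 or 5 of 5 detected per library. Epithelial markers summed to 30950 CPM in the KO lung against 675 in the WT lung (9 and 7 of 9 detected), and to 125.4 CPM in the KO and 158 in the WT aorta (6 and 2 of 9). Fibroblast markers summed to 1557 CPM in the KO aorta against 744 in the WT aorta, and to 5.77 CPM in the KO lung against 417 in the WT lung, with 4 of 10 detected in the KO lung and 9 or 10 elsewhere. Macrophage markers stood at 255 CPM in the KO and 125.3 in the WT aorta and at 311 CPM in the KO and 417 in the WT lung, with 7 to 10 of 10 detected. In the endothelial-like clusters alone, the ratios of all 5 genes in both tissues lay inside the counting intervals given for all cells. In the lung all 5 ratios were higher there than over all cells. Glo1 was at 1.90 against 1.78, Tgm2 at 1.56 against 1.42 and Emp1 at 1.68 against 1.54. Sult1a1 was at 0.646 against 0.606 and Cirbp at 0.629 against 0.604. In the aorta Tgm2 was higher there and the rest were lower. The cause of these shifts was not tested.

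Glo1 had the highest ratios of the 3 genes that were higher. It stood at 149.8 CPM in the KO aorta (exact 95% Poisson interval 138.6 to 161.7) and 81.8 CPM in the WT aorta (65.0 to 101.7), a ratio of 1.83 (exact conditional 95% interval 1.45 to 2.335). In the lung it stood at 134.5 CPM in KO cells (113 to 159) and 75.6 CPM in WT cells (62.3 to 90.9), a ratio of 1.78 (1.38 to 2.30). Its KO levels in the 2 tissues were close, and so were its WT levels. Lung over aorta was 0.898 (0.743 to 1.08) in KO and 0.924 (0.689 to 1.245) in WT.

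Tgm2 differed between tissues as well as between genotypes. Its level was 399 CPM in the KO aorta (381 to 418.5) and 265 CPM in the WT aorta (234 to 299), a ratio of 1.51 (1.325 to 1.725). The KO lung had 235 CPM (207 to 267) and the WT lung 166 CPM (146 to 188), a ratio of 1.42 (1.18 to 1.70). Lung over aorta was 0.589 (0.514 to 0.674) in KO and 0.627 (0.525 to 0.749) in WT, so the KO lung and the WT aorta had overlapping intervals.

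Emp1 was higher in KO by close to the same factor in both tissues. It stood at 584 CPM in the KO aorta (561 to 607) and 392 CPM in the WT aorta (354 to 433), a ratio of 1.49 (1.34 to 1.66). In the lung it stood at 515 CPM in KO cells (472 to 561) and 335 CPM in WT cells (306 to 365), a ratio of 1.54 (1.36 to 1.74). Lung levels were somewhat lower than aortic ones, with lung over aorta at 0.8825 (0.803 to 0.969) in KO and 0.854 (0.746 to 0.977) in WT.

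Sult1a1 was lower in the knockout libraries and higher in the lung. It stood at 118 CPM in the KO aorta (108 to 129) and 205 CPM in the WT aorta (178 to 235), a ratio of 0.576 (0.489 to 0.681). The lung held 167 CPM in KO cells (143 to 194) and 276 CPM in WT cells (249.8 to 304), a ratio of 0.606 (0.505 to 0.726). Lung over aorta was 1.415 (1.185 to 1.68) in KO and 1.345 (1.13 to 1.60) in WT, and the intervals of the KO lung and the WT aorta overlapped.

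Cirbp had nearly the same level in both tissues of each genotype. It stood at 175 CPM in the KO aorta (163 to 188) and 283 CPM in the WT aorta (251 to 318), a ratio of 0.620 (0.540 to 0.713). In the lung it stood at 173 CPM in KO cells (149 to 200.2) and 286.5 CPM in WT cells (260.0 to 315), a ratio of 0.604 (0.504 to 0.720). Lung over aorta was 0.986 (0.834 to 1.16) in KO and 1.01 (0.869 to 1.18) in WT.

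**Figure D1:**
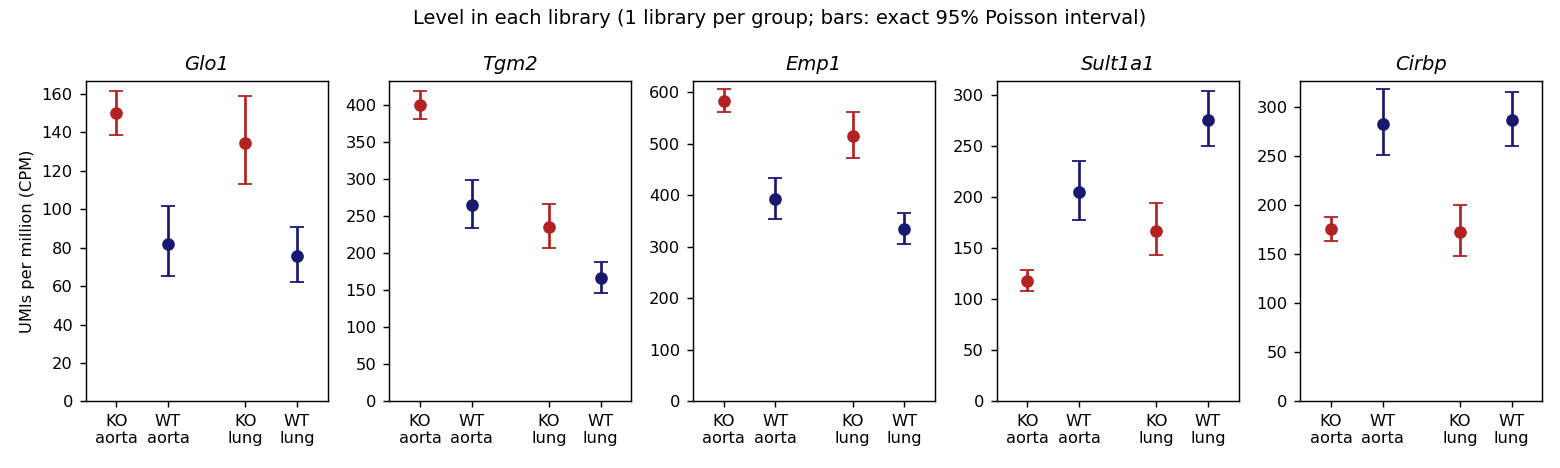
Level (CPM, vertical axis) of each gene in the 4 libraries, KO in red and WT in dark blue, with exact 95% Poisson intervals as bars and 1 library per group. Glo1, Tgm2 and Emp1 stand higher in KO in both tissues (Emp1 at 584 CPM in the KO against 392 in the WT aorta), and Sult1a1 and Cirbp stand lower (Cirbp at 173 CPM in the KO against 286.5 in the WT lung).

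The size of the change was close in the 2 tissues for each gene. The aortic ratio divided by the lung ratio was 1.03 for Glo1 (95% interval on the log scale 0.734 to 1.44), 1.06 for Tgm2 (0.855 to 1.325) and 0.967 for Emp1 (0.823 to 1.14). It was 0.95 for Sult1a1 (0.747 to 1.21) and 1.03 for Cirbp (0.823 to 1.28). All of these intervals include 1, which leaves room for tissue differences of the sizes at their bounds. This closeness follows from how the genes were listed.

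Against all genes with at least 50 CPM on average and 30 UMIs in a tissue's libraries, the 5 genes stood toward the ends without being the most extreme. All 5 passed this filter in both tissues. In the aorta 93 of 2992 such genes (3.11%) were at least 1.5-fold higher in KO, among them Glo1 and Tgm2, while Emp1 at 1.49 was just outside. A further 70 (2.34%) were at least 1.5-fold lower, among them Sult1a1 and Cirbp. In the lung 61 of 3255 genes (1.87%) were at least 1.5-fold higher, among them Glo1 and Emp1, with Tgm2 at 1.42 outside, and 99 (3.04%) were at least 1.5-fold lower, among them Sult1a1 and Cirbp. Since the same contrasts chose the genes, nothing is read from these counts. The median log2 ratio of all measured genes was 0.036 in the aorta and -0.066 in the lung. Glo1 ranked 24 among the genes higher in KO in the aorta and 25 in the lung, and Cirbp ranked 55 and 50 among those lower.

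Few genes passed 1.5-fold in the same direction in both tissues. Of 2523 genes measured in both, 8 were higher in both, which is 11.6% of the aortic and 30.8% of the lung list over these genes, and 5 were lower in both (9.09% and 8.20%). The 8 were Glo1, the antigen presentation genes H2-Q7, H2-Q6, H2-Eb1, H2-Ab1 and Cd74, the neuropeptide precursor Nts and the mitochondrial ribosomal protein gene Mrps12. The 5 were Sult1a1, Cirbp, the long noncoding RNA Hotairm1, Ltbp4, which binds latent TGF-beta, and Pnpla2, which encodes the triglyceride lipase ATGL. Over all cells, Tgm2 passed in the aorta alone and Emp1 in the lung alone, with the other ratio at 1.42 and 1.49. For Tgm2 this depended on the cells used. In endothelial-like clusters alone Tgm2 was past 1.5-fold in both tissues, at 1.535 in the aorta and 1.56 in the lung. Emp1 was at 1.464 and 1.68 there. The tissues came from the same mice, so they are not independent. Of the 8 that were higher at 1.5-fold, 5 lie on chromosome 17 (62.5%), Glo1 and 4 genes of the major histocompatibility complex, against 141 of the 2523 measured genes (5.59%). As 4 of the 5 belong to the same complex, they are not separate cases, and nothing is read from this share. H2-Q6 and H2-Q7 belong to a family of near-identical genes, so how reads were split between them is uncertain. B cells carry class II molecules, and B-cell markers summed to 45.5 CPM in the KO and 0 in the WT aorta. In the lung they summed to 138 CPM in KO and 1.34 in WT. Class II genes were also among the leading genes of the aortic macrophage-like cluster (12 KO and 1 WT cells). The same held for an endothelial-like lung cluster led by Cdk19 (40 KO and 27 WT cells). The part of any of these cells in the class II values was not tested.

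**Figure D2:**
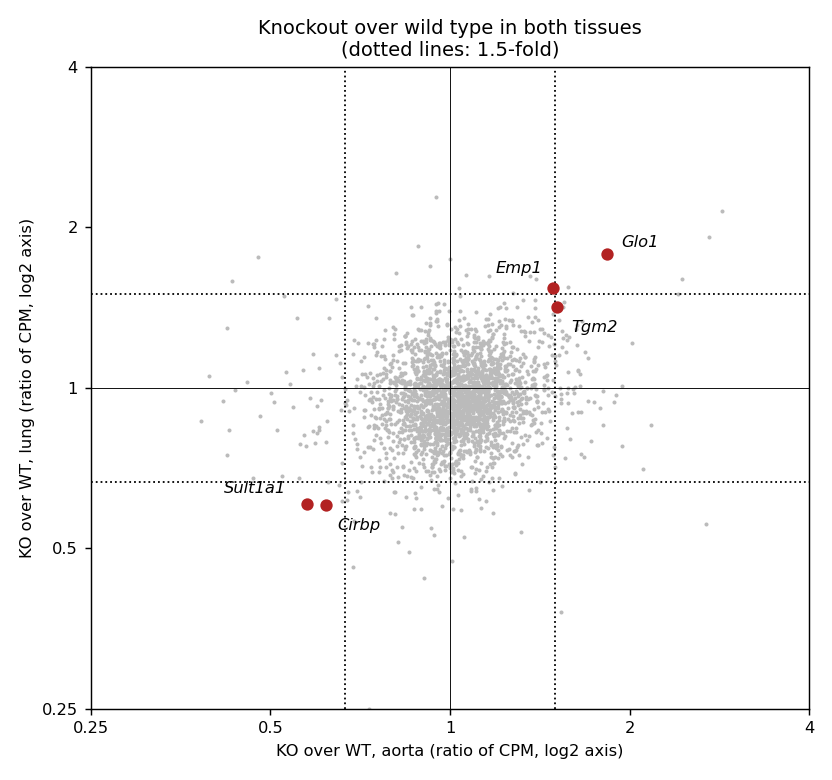
Each point is 1 gene measured in both tissues, with its KO over WT ratio of CPM in the aorta on the horizontal and in the lung on the vertical axis (both log2 axes, dotted lines at 1.5-fold). Red points mark the 5 genes, Glo1 at 1.83 and 1.78 in the upper right and Sult1a1 at 0.576 and 0.606 in the lower left, outside the central cloud, and 13 genes lie beyond the axes.

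More cells carried a UMI of the genes that were higher, and fewer of those that were lower. Glo1 was found in 31.6% of KO against 17.1% of WT aortic cells, and in 21.7% of KO against 12.6% of WT lung cells. Tgm2 was found in 55.6% of KO against 40.1% of WT aortic cells and in 28.7% of KO (24.8 to 32.9, exact binomial) against 24.1% of WT lung cells (21.2 to 27.3), where the intervals overlapped. Emp1 was found in 59.5% of KO against 44.8% of WT aortic cells and in 44.1% of KO against 35.9% of WT lung cells. Sult1a1 was found in 24.4% of KO against 34.9% of WT aortic cells and in 25% of KO against 35.7% of WT lung cells. Cirbp was found in 35.9% of KO against 44.1% of WT aortic cells and in 26.8% of KO against 40.1% of WT lung cells. Such shares depend on depth, and the median depth was higher in KO in both tissues.

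With each cell thinned to 1000 UMIs the shares kept their direction, and the intervals of Sult1a1 came to overlap. Cells with fewer UMIs were left out for this, 148 in the KO aorta, 72 in the WT aorta, 118 in the KO lung and 142 in the WT lung. Glo1 was then found in 14.5% of KO aortic cells (exact 95% binomial interval 12.7 to 16.4) against 7.53% of WT (4.93 to 10.9), and in 13.1% of KO lung cells (9.89 to 16.8) against 6.48% of WT (4.69 to 8.685). For Emp1 the shares were 38.3% of KO (35.75 to 40.9) against 26.2% of WT cells (21.55 to 31.3) in the aorta and 35.9% of KO (31.1 to 40.9) against 24.6% of WT cells (21.3 to 28.2) in the lung. Cirbp was found in 15.5% of KO (13.6 to 17.5) against 22.9% of WT cells (18.5 to 27.8) in the aorta and in 13.85% of KO (10.6 to 17.7) against 26.7% of WT cells (23.3 to 30.3) in the lung. For these 3 genes the KO and WT intervals lay apart in both tissues. The intervals treat cells as independent, although cells of several mice share a library. Shares of positive cells helped to choose the genes, and no share over all genes is set beside this, so nothing is read from it. Tgm2 was found in 32.9% of KO (30.5 to 35.45) against 22.3% of WT cells (17.9 to 27.15) in the aorta, but in 17.4% of KO (13.8 to 21.6) against 15.3% of WT cells (12.6 to 18.4) in the lung, where the intervals overlapped as they had before thinning. Sult1a1 was found in 12.9% of KO (11.2 to 14.7) against 18.1% of WT cells (14.1 to 22.6) in the aorta and in 17.7% of KO (14.0 to 21.85) against 22.9% of WT cells (19.7 to 26.4) in the lung, overlapping in both.

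**Figure D3:**
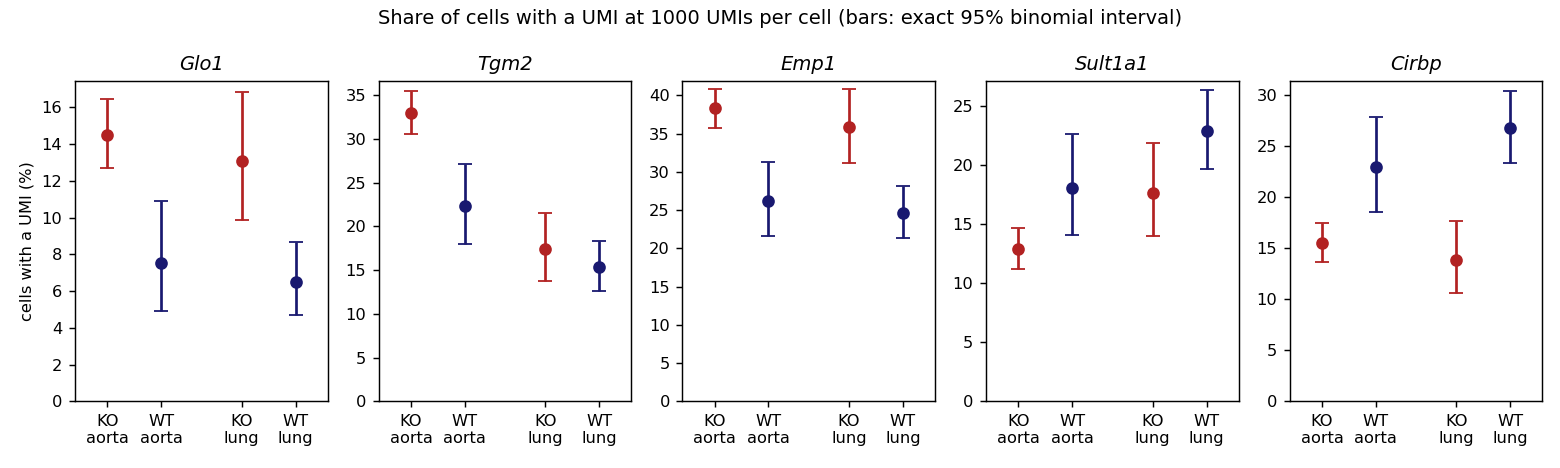
Share of cells with at least 1 UMI of each gene (percent, vertical axis) after thinning every cell to 1000 UMIs, KO in red and WT in dark blue, with exact 95% binomial intervals. KO and WT intervals lie apart for Glo1, Emp1 and Cirbp in both tissues, while those of Tgm2 overlap in the lung (17.4% in KO against 15.3% in WT). Such shares helped to choose the genes, so this is a description only.

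The number of UMIs per positive cell moved with the share. Positive cells held on average 2.76 Emp1 UMIs in the KO and 2.14 in the WT aorta, and 2.39 in the KO and 1.80 in the WT lung. At least 4 Emp1 UMIs were found in 12.6% of KO against 5.45% of WT aortic cells and in 8.27% of KO against 2.84% of WT lung cells. For Tgm2 such cells made up 7.27% of KO against 2.23% of WT in the aorta and 1.97% of KO against 0.129% of WT in the lung. Glo1, Sult1a1 and Cirbp were found mostly as single UMIs, with 1.15 to 1.57 UMIs per positive cell. The levels did not rest on single cells. The cell with the most UMIs of a gene held from 0.567% (Tgm2, KO aorta) to 4.12% (Emp1, WT aorta) of that gene's UMIs in its library.

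The background from free RNA could not be measured here. Erythroid-like cells, which carry little beside globin transcripts, numbered 9 in the aorta (both libraries together, median 2263 UMIs). None of them held a UMI of Glo1, Emp1 or Cirbp and 1 each held Tgm2 and Sult1a1, too few cells to set a level. The levels were not corrected for free RNA.

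Clustering within each tissue was done without these 5 genes, so that none of them defined a cluster. Ratios could be taken in 8 aortic and 7 lung clusters with at least 20 cells of each genotype. A cluster is called capillary-like, lymphatic-like and so on when at least 3 fixed markers of that class were among its 10 leading genes. Others are called by their leading genes. Clusters left out for too few cells include the aortic ones led by Tubb3 and Col8a1 (158 KO and 11 WT cells), by Nts and Cldn11 (76 KO and 5 WT) and by Alpl and Gper1 (67 KO and 13 WT).

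Glo1 was higher in KO in 7 of 8 aortic and 7 of 7 lung clusters. Of all measured genes, 7.82% were higher in at least 7 of 8 aortic clusters and 2.52% in 7 of 7 lung clusters. The clusters hold the cells that chose the genes, so nothing is read from such counts. Its aortic ratios had a median of 2.08 and reached 3.20 (1.285 to 10.3) in lymphatic-like cells, at 223 CPM in KO and 69.7 CPM in WT, and 3.23 (1.23 to 12.1) in the cluster led by Ahsg. The exception was the capillary-like cluster, at 98.9 CPM in KO and 105.7 CPM in WT (ratio 0.936, 0.378 to 2.53). In the lung the venous-like cluster had 159 CPM in KO and 49.3 CPM in WT (ratio 3.23, 1.145 to 11.2), and the lowest ratio was 1.34 (0.790 to 2.27) in aerocyte-like cells, the specialised alveolar capillary type. The highest lung ratio, 7.40 in the cluster led by Cdk19 and MHC class II genes, rested on 14 KO UMIs against 1 WT UMI (interval 1.13 to 312.8).

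Tgm2 was higher in KO in 6 of 8 aortic and 6 of 7 lung clusters. Of all measured genes, 22.1% were higher in at least 6 of 8 aortic clusters and 11.3% in at least 6 of 7 lung clusters. Its highest aortic ratio was 2.59 (1.48 to 4.88) in the cluster led by Nos3 and Gkn3, an artery marker, at 441 CPM in KO and 170.5 CPM in WT. In the cluster led by Plac8 and Lrg1, where Tgm2 was abundant, the levels were 533 CPM in KO and 579 CPM in WT (ratio 0.920, 0.680 to 1.265), and in the one led by Ahsg 324 CPM in KO and 331 CPM in WT (0.9785, 0.645 to 1.55). In the lung Tgm2 was highest in venous-like cells, at 515 CPM in KO and 296 CPM in WT (1.74, 1.10 to 2.82), and lowest in KO aerocyte-like cells, at 109 CPM against 90.1 CPM in WT (1.21, 0.670 to 2.15). The lung cluster led by Stard9, with 4 KO and 14 WT UMIs, was the exception, at a ratio of 0.665 (0.159 to 2.12).

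Emp1 was higher in KO in 7 of 8 aortic and 6 of 7 lung clusters, against 7.82% and 11.3% of all measured genes with at least as many. The highest KO aortic level was in the cluster led by the immediate early genes Fos and Nr4a1, at 813 CPM against 438 CPM in WT (ratio 1.855, 1.475 to 2.35). In capillary-like cells the levels were 272 CPM in KO and 277.5 CPM in WT (0.980, 0.571 to 1.74). In the cluster led by Plac8 they were 626 CPM in KO and 611 CPM in WT (1.025, 0.766 to 1.39). In the lung, venous-like cells had 993 CPM in KO and 552 CPM in WT (1.80, 1.29 to 2.53), and aerocyte-like cells 578 CPM in KO and 348 CPM in WT (1.66, 1.275 to 2.16). The cluster led by B930036N10Rik and Aplnr, a marker of general capillary cells, had 244 CPM in KO and 243 CPM in WT (1.00, 0.635 to 1.57). The lung exception was the cluster led by Stard9, at 117 CPM in KO and 176 CPM in WT (0.665, 0.159 to 2.12), with 4 KO and 14 WT UMIs.

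Sult1a1 was lower in KO in 7 of 8 aortic and 7 of 7 lung clusters. Over all measured genes, 4.61% were lower in at least 7 of 8 aortic clusters and 2.43% in 7 of 7 lung clusters. Its level varied with vessel type. Aortic capillary-like cells had 451 CPM in KO and 674 CPM in WT (ratio 0.670, 0.462 to 0.977), while the KO cluster led by Tubb3 had 25.3 CPM. In the lung the cluster led by B930036N10Rik and Aplnr had 344.5 CPM in KO and 415 CPM in WT (0.8295, 0.573 to 1.19), whereas aerocyte-like cells had 37.9 CPM in KO and 54.1 CPM in WT (0.7005, 0.2635 to 1.69). Lung lymphatic-like cells had 472 CPM in 19 KO cells and 693 CPM in 42 WT cells. Capillary-like cells made up 6.63% of KO and 14.6% of WT aortic cells. With aortic clusters weighted alike the ratio was 0.768, against 0.576 for all cells. The exception was the unnamed aortic cluster led by Klk10 and Pthlh, at 70.3 CPM in KO and 42.4 CPM in WT (1.66, 0.512 to 8.52), where WT had 3 UMIs.

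Cirbp was lower in KO in 7 of 8 aortic and 7 of 7 lung clusters, against 4.61% and 2.43% of all measured genes with at least as many. The same cells chose the gene, so nothing is read from these counts. Aortic ratios had a median of 0.612 and were lowest in the cluster led by Klk10, at 203.5 CPM in KO and 424 CPM in WT (0.480, 0.312 to 0.7555). The exception was lymphatic-like cells, at 236 CPM in KO and 153 CPM in WT (1.54, 0.796 to 3.27). Lung ratios lay between 0.528 (0.324 to 0.833), in the cluster led by Atf3 and Fosb, and 0.793 (0.333 to 1.97). Lung aerocyte-like cells had 227 CPM in KO and 339 CPM in WT (0.6695, 0.467 to 0.946).

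**Figure D4:**
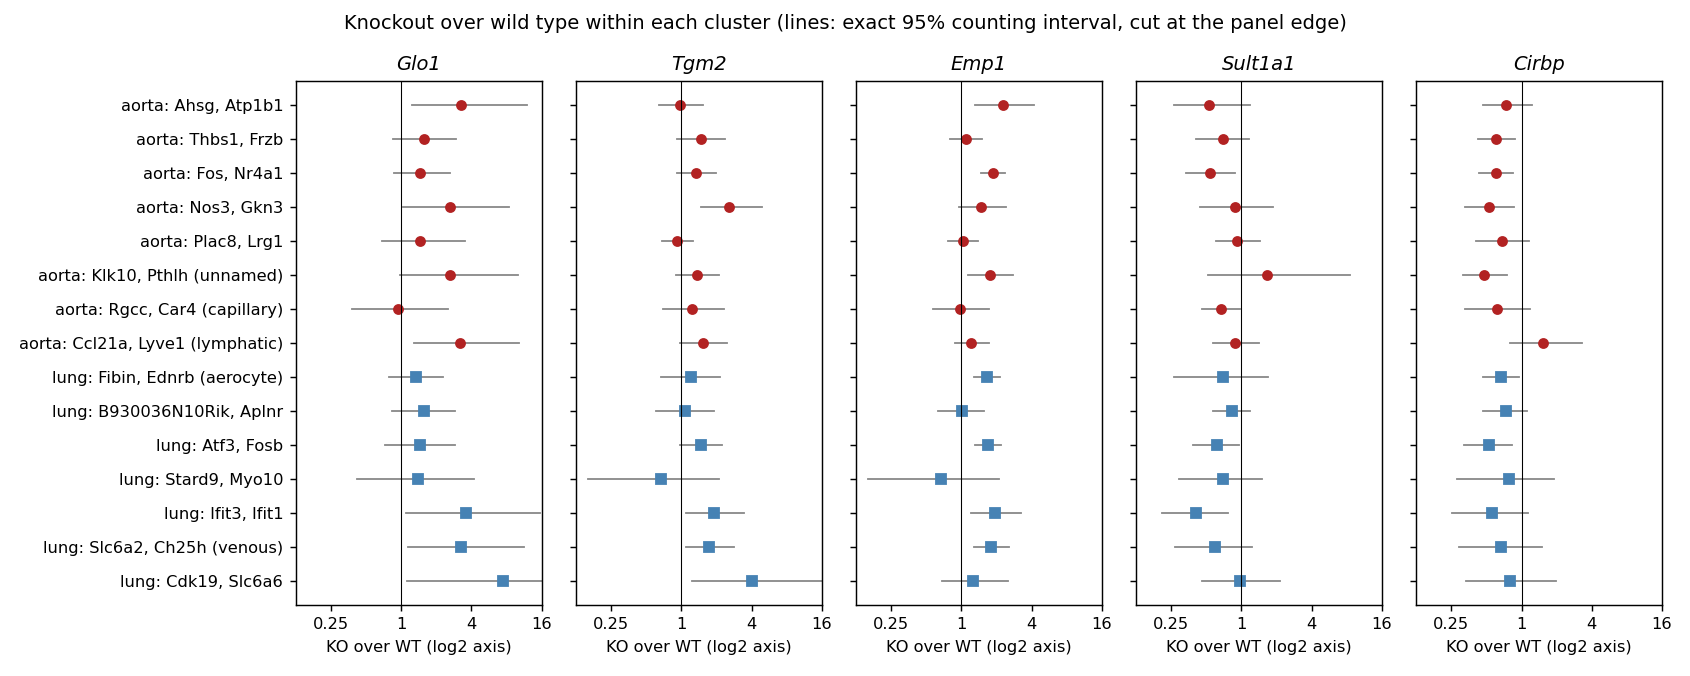
KO over WT ratio of CPM (horizontal log2 axis) of each gene in each cluster with at least 20 cells of both genotypes, aortic clusters as red circles and lung clusters as blue squares, named by leading genes and, in brackets, class. Lines are exact 95% counting intervals, and the black line is a ratio of 1. Glo1 is right of 1 in all 7 lung clusters, as were 2.52% of all measured genes. Sult1a1 and Cirbp are left of 1 in all 7, as were 2.43%.

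Genes of the surrounding pathways that passed the abundance filter did not pass 1.5-fold in the same direction in both tissues, in any of the 8 lists. These lists are short. From 0 (sulfation) to 15 genes per list were measured in both tissues, with 1 each for the retinoid and clock lists. Over all 2523 genes measured in both, only 8 passed upward and 5 downward. Within a single tissue, 1.87% to 3.11% of all measured genes passed in a given direction. Nothing is therefore read from counts of 0 in the lists. Some list genes below the filter passed 1.5-fold in the same direction in both tissues, in the clock list and in others. Further ones differed in opposite directions between the tissues. For methylglyoxal detoxification and glutathione, 0 of 9 measured genes in the aorta and 0 of 10 in the lung were past 1.5-fold in either direction. The list's median log2 ratios were 0.080 in the aorta and -0.017 in the lung. Hagh, the second enzyme of the glyoxalase pathway, stood at 60.4 CPM in KO and 62.6 in WT aorta and at 64.4 CPM in KO and 65.6 CPM in WT lung. Its ratios were 0.965 (0.729 to 1.29) and 0.9815 (0.708 to 1.35). Akr1b3, an aldose reductase, had the highest aortic ratio, 1.45 (1.10 to 1.95), with 1.06 (0.811 to 1.37) in the lung. Next in the aorta was the glycolytic enzyme gene Tpi1 at 1.16 (0.949 to 1.43), and Park7, which encodes DJ-1, was highest in the lung at 1.08 (0.914 to 1.28). Aldh2, an aldehyde dehydrogenase, was lowest in the lung at 0.875 (0.813 to 0.942), and Gclm, a subunit of the enzyme that makes the glutathione precursor, was lowest in the aorta at 0.813 (0.637 to 1.048). In the other tissue they stood at 0.927 and 0.938.

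Of the transglutaminases and partners of Tgm2, 2 of 6 measured genes were at least 1.5-fold higher in the KO aorta and 0 of 4 in the lung. These were Sdc4, a heparan sulfate proteoglycan, at 1.64 (1.22 to 2.24), and Tgfb1, at 181 CPM in KO and 118 CPM in WT, a ratio of 1.53 (1.26 to 1.88). In the lung they were at 1.08 (0.742 to 1.55) and 0.936 (0.775 to 1.13). Lrp5, a Wnt co-receptor, had ratios on either side of 1, at 0.744 (0.584 to 0.957) in the aorta and 1.21 (0.895 to 1.63) in the lung. The adhesion receptor gene Adgrg1 was at 0.792 (0.6305 to 1.00) in the aorta, and Itgb1, an integrin subunit, at 1.12 (0.987 to 1.27) in the lung. The list's median log2 ratios were -0.046 and 0.135. Of genes of the retinoid response, which includes Tgm2 itself as a known target, 0 of 2 measured genes in the aorta and 1 of 4 in the lung passed 1.5-fold. The lung gene was Dhrs3, a retinaldehyde reductase, which was lower at 109 CPM in KO and 170.0 CPM in WT (0.639, 0.507 to 0.8002), against 0.807 (0.660 to 0.993) in the aorta. In the lung the receptor genes Rara and Rarg were at 1.03 (0.726 to 1.46) and 0.780 (0.5415 to 1.11), and Cyp26b1, which degrades retinoic acid, at 0.793 (0.600 to 1.04).

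In the family of Emp1, 1 of 6 measured genes was at least 1.5-fold higher in the KO aorta and 0 of 5 in the lung, with median log2 ratios of 0.144 and -0.153. Emp2 stood at 262 CPM in KO and 265 CPM in WT aorta (0.988, 0.8635 to 1.13) and at 1118 CPM in KO and 1077 CPM in WT lung (1.04, 0.961 to 1.12). Pmp22, a myelin and membrane protein gene, was the one past the fold in the aorta. Its ratio was 1.66 (1.27 to 2.19) there and 0.8995 (0.811 to 0.997) in the lung. Emp3 had ratios of 1.235 (1.11 to 1.37) and 0.813 (0.582 to 1.13). Cldn5, the claudin of endothelial tight junctions, had ratios of 0.799 (0.753 to 0.847) and 1.09 (1.050 to 1.14). Perp was at 0.829 (0.674 to 1.03) in the aorta, and Cldnd1 at 1.37 (1.02 to 1.87) there and 0.854 (0.629 to 1.15) in the lung.

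No gene of the sulfation list, 19 genes with the other sulfotransferases and the enzymes that make and transport PAPS, passed the abundance filter in either tissue. Of the temperature-regulated RNA-binding and splicing list, 0 of 15 measured genes in the aorta and 0 of 16 in the lung were past 1.5-fold, with median log2 ratios of -0.035 and -0.009. Rbm3, the cold-inducible relative of Cirbp, stood at 499 CPM in KO and 530.4 CPM in WT aorta (0.941, 0.855 to 1.04) and at 448 CPM in KO and 451 CPM in WT lung (0.993, 0.880 to 1.12). Srsf5, a splicing factor, had the lowest ratio of the list in both tissues, 0.775 (0.681 to 0.8845) and 0.771 (0.686 to 0.866). The highest were Srsf3 in the aorta, at 1.248 (1.07 to 1.47), and Hnrnph1 in the lung, at 1.19 (0.964 to 1.465). Next came Srsf6 at 1.12 (0.870 to 1.47) and Clk4, a kinase of splicing factors, at 1.11 (0.801 to 1.54). Second lowest were Srsf2 in the aorta, at 0.839 (0.743 to 0.949), and Hnrnpdl in the lung, at 0.7805 (0.614 to 0.987).

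Heat shock genes had 0 of 11 measured members past 1.5-fold in the aorta and 2 of 12 in the lung, both higher in KO, with median log2 ratios of 0.208 and 0.162. The 2 were the inducible Hsp70 genes Hspa1a, at 428 CPM in KO and 245 CPM in WT lung (1.745, 1.52 to 2.01), and Hspa1b, at 112 CPM in KO and 54.9 CPM in WT (2.05, 1.53 to 2.75). In the aorta Hspa1a was at 1.00 (0.859 to 1.17). Hspd1, a mitochondrial chaperone, had the highest aortic ratio of the list, 1.425 (1.12 to 1.83), followed by Hspa8, the constitutive Hsp70, at 1.39 (1.30 to 1.49), and Dnajb1, a co-chaperone of Hsp70, was lowest in both tissues at 0.833 (0.674 to 1.04) and 0.713 (0.585 to 0.866). Bag3, another co-chaperone, was at 0.8585 (0.615 to 1.19) in the lung. Of the circadian clock genes, 1 was measured in the aorta and 3 in the lung, and none of these passed 1.5-fold. Below the abundance filter, Arntl, which encodes the core clock activator BMAL1, was at 20.1 CPM in KO and 36.4 CPM in WT aorta (0.554, 0.372 to 0.840) and at 13.45 CPM in KO and 27.4 CPM in WT lung (0.490, 0.247 to 0.918). Cry1, a clock repressor, was at 0.6496 (0.308 to 1.49) in the aorta and 0.3705 (0.147 to 0.824) in the lung. It had 10 UMIs in the WT aorta and 8 in the KO lung. Other clock genes below the filter were higher in the KO aorta. Nr1d1 was at 3.2 (1.497 to 8.163) there, with 7 WT UMIs. Dbp was at 7.392 (1.237 to 300.7) there, with 1 WT UMI. In the lung Nr1d1 was at 0.5742 (0.05468 to 3.508) and Dbp at 0.4307 (0.07616 to 1.673). At these low counts the clock list thus went both ways in the aorta. Bhlhe40, another clock repressor, was at 1.24 (0.974 to 1.59) and 1.01 (0.7835 to 1.31). In the lung Clock was at 1.16 (0.809 to 1.66) and Per1 at 0.796 (0.554 to 1.13).

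**Figure D5:**
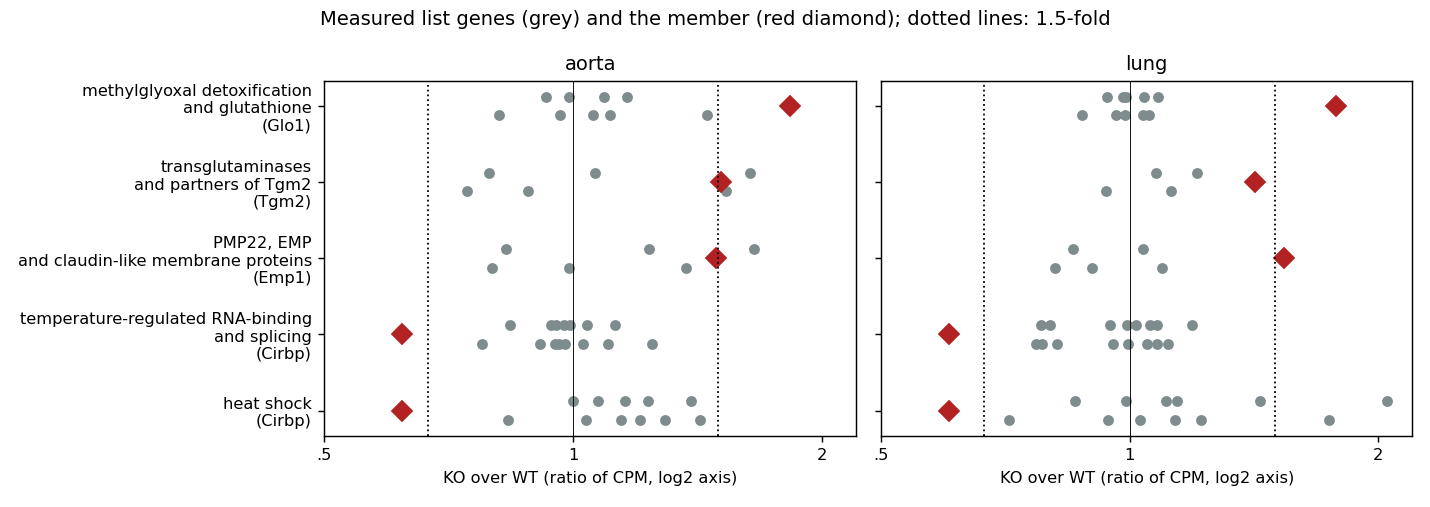
KO over WT ratio of CPM (horizontal log2 axis) of the measured genes of 5 lists (grey circles, set above or below the line only to keep them apart) in the aorta at left and the lung at right, with the related gene as a red diamond and dotted lines at 1.5-fold. Glo1 (1.83 and 1.78) and Cirbp (0.620 and 0.604) stand outside the spread of the grey circles of their lists in both tissues. Tgm2 and Emp1 do so in the lung alone. In the aorta Tgm2 (1.51) lies below Sdc4 (1.64) and Tgfb1 (1.53), and Emp1 (1.49) below Pmp22 (1.66). The related genes were chosen by such ratios, so their place beside the lists is a description only.

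Genes beside the 5 on their chromosomes were read within 500 kb where they had at least 30 UMIs. In laboratory mice a stretch of chromosome 17 that holds Glo1 is known to vary in copy number between strains. Copy number was not measured here, and its part in the Glo1 values was not tested. Btbd9, 8.45 kb from Glo1, stood at 34.6 CPM in KO and 20.2 CPM in WT aorta (1.71, 1.07 to 2.88) and at 24.0 CPM in KO and 19.4 CPM in WT lung (1.24, 0.695 to 2.19). Dnah8, an axonemal dynein gene that overlaps Glo1 on the other strand, had enough UMIs only in the lung, at 29.8 CPM in KO and 50.9 CPM in WT (0.586, 0.373 to 0.900). Zfand3, 374 kb away, had ratios of 0.886 (0.641 to 1.248) and 1.22 (0.887 to 1.68), and the cholesterol transporter gene Abcg1, 431 kb away, 0.805 (0.540 to 1.23) and 1.085 (0.768 to 1.53).

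Near Tgm2, the overlapping Rprd1b had ratios of 1.24 (0.710 to 2.31) in the aorta and 0.773 (0.470 to 1.247) in the lung. Lbp, a lipopolysaccharide-binding protein gene 160.1 kb away, was at 126 CPM in KO and 66.7 CPM in WT aorta (1.88, 1.46 to 2.47) and at 97.1 CPM in KO and 103 CPM in WT lung (0.9415, 0.725 to 1.22). Near Emp1, Hebp1, a heme-binding protein gene, was at 1.32 (0.938 to 1.91) and 1.93 (1.49 to 2.51), and Apold1, an endothelial early response gene, at 0.604 (0.4915 to 0.745) and 0.834 (0.6795 to 1.02). Near Sult1a1, the overlapping Sgf29 was at 1.09 (0.666 to 1.86) and 1.06 (0.693 to 1.60), and Bola2, 18.97 kb away, at 1.18 (0.985 to 1.43) and 1.02 (0.7775 to 1.34). Near Cirbp, Midn was at 1.07 (0.8035 to 1.445) and 1.11 (0.896 to 1.37), and Atp5d at 1.03 (0.909 to 1.17) and 0.927 (0.795 to 1.08). Around Tgm2 the neighbours had a median ratio of 1.57 over 5 genes in the aorta, where 3 were at least 1.5-fold higher, and of 0.773 over 5 genes in the lung. Besides Lbp, the 3 were Ralgapb (1.57, 0.776 to 3.59) and Actr5 (1.68, 0.7145 to 4.82), with 9 and 6 WT UMIs and intervals that include 1. At 14.3 and 10.2 CPM in KO, these lie below the levels at which all genes were counted. No share over all genes stands beside this count, and nothing is read from it. Around Glo1 the medians were 0.886 over 3 aortic and 1.155 over 4 lung genes, and around Emp1 0.801 and 1.06 over 6 genes in each tissue. Around Sult1a1 they were 1.06 and 1.04 over 29 and 24 genes, and around Cirbp 1.03 and 0.9095 over 36 and 33 genes. The sources used here do not state whether the counting used strand, so reads of a gene and of one that overlaps it on the other strand cannot be told apart.

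The last 300 bases of the transcripts were compared with those of all other genes, since droplet libraries are usually read from the 3′ end and reads from shared sequence can be lost or misassigned. Of 50-base stretches, 15.4% in Sult1a1 also occurred in Gm6939, 3.91% in Glo1 also occurred in Gm13443, and 0.936% in Emp1 were found elsewhere. None of those in Tgm2 and Cirbp were.

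Over 36 sums of cells, 1 for each cluster and library with at least 20 cells, the genes most like each of the 5 were found among 2523 genes by Pearson correlation of log2(CPM + 10). These sums share libraries and differ in depth, and the KO and WT difference that chose the genes is part of the correlation. The closest to Sult1a1 was Trim37, a ubiquitin ligase gene (r = 0.745), whose KO over WT ratios were 0.467 in the aorta and 0.678 in the lung. It was followed by Abcg2, an efflux transporter (r = 0.685, ratios 0.673 and 0.6145), and the capillary gene Gpihbp1 (r = 0.685, ratios 0.608 and 0.95). Closest to Emp1 were Hspa9, the mitochondrial Hsp70 (r = 0.767), and Lmna, which encodes lamin A (r = 0.685), with ratios of 1.22 and 1.31 and of 1.58 and 1.07. For Tgm2 they were Itm2c (r = 0.739, ratios 1.498 and 0.965) and Ndrg1 (r = 0.715, ratios 1.13 and 1.005). Among those most like Glo1 was the cap-binding factor Eif4e (r = 0.633, ratios 1.201 and 1.09), and among those most like Cirbp was Ypel3 (r = 0.626, ratios 0.810 and 0.580). Among the 5 themselves, Tgm2 and Emp1 were most alike (r = 0.599), Emp1 and Cirbp least (r = -0.541), and Sult1a1 and Cirbp had r = 0.123.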

How the data were processed

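The authors deposited 1 matrix of raw UMI counts for each library, cells by genes, and the submitters' processing notes name Cell Ranger and the build mm10. No version or counting annotation is stated in the sources used here. A matrix has 31053 rows. Lung identifiers were named with GENCODE M21, which matched all but 119, and rows of 1 symbol were summed. Barcodes with fewer than 500 UMIs or over 15% mitochondrial UMIs were left out (54, 45, 21 and 25 in the KO aorta, WT aorta, KO lung and WT lung).

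Scrublet in scanpy 1.11.5 called 4, 4, 7 and 6 doublets at an assumed rate of 0.8% per 1000 cells. These were kept, and their removal was an alternative. Free RNA was not corrected for.

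CPM are summed counts over a library's total. CPM have exact Poisson, ratios exact conditional and shares exact Clopper-Pearson 95% intervals (scipy 1.17.1), all for counting error only. Cells were clustered per tissue on 2000 variable genes without the 5 genes, with 30 components, 15 neighbours and Leiden resolution 1. A cluster with fewer than 3 leading markers of a class was taken as endothelial-like with at least 8 of 15 endothelial markers in 25% of cells, if markers of other cell types did not lead it more often than endothelial ones. One aortic cluster led by Klk10, with the fibroblast markers Mfap5 and Pi16 among its leading genes, stayed unnamed. Names rebuilt from markers can differ from the authors' own. The aortic clusters led by Thbs1 and by Tubb3 held 1 marker of a non-endothelial type, Krt18 and Dcn, beside 1 of their own.

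The genes, lists, markers and alternatives were chosen with earlier results of these data known. Genes named are the 5 genes, Pou5f1, the 2 highest and 2 lowest measured genes of each list and tissue, some of the 6 nearest neighbours per gene and some of the 3 most alike genes. A few that this rule takes are not reported here. Hagh, Rbm3, Arntl, Cry1, Nr1d1, Dbp, Ralgapb, Actr5 and the genes past 1.5-fold in both tissues were named after their values were seen. Interval code was tested on simulated data. With 1 library per group no test was possible.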

Additional observations from a re-analysis of the deposited data

Results flagged for a closer look

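Of the list genes and neighbours, 2 had counting intervals on opposite sides of 1 in the aorta and the lung. Cldn5, the tight junction claudin, stood at 1163 CPM in KO and 1456 CPM in WT aorta, a ratio of 0.7986 (95% interval 0.753 to 0.847), and at 4065 CPM in KO and 3718 CPM in WT lung, a ratio of 1.093 (1.050 to 1.14). Pmp22, a relative of Emp1, stood at 105.5 CPM in KO and 63.65 CPM in WT aorta, a ratio of 1.657 (1.27 to 2.19), and at 575.6 CPM in KO and 639.9 CPM in WT lung, a ratio of 0.8995 (0.811 to 0.997). The share of all measured genes with such opposite intervals was not counted, so nothing is read from the count of 2. The difference between tissues was not tested, since each group is 1 library.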

How the results depend on the processing

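No paired analysis was possible because each group is 1 library, and for the same reason no replicate could be left out. Over 13 alternatives per gene and tissue, 130 ratios in all, 121 moved by less than the counting interval, 9 moved by more and 0 changed direction. In the lung 1 of the 13, which adds an aortic cluster, repeats the values of endothelial-like clusters alone. With aortic clusters weighted alike at resolutions 0.5, 1 and 2, Tgm2 was at 1.32, 1.304 and 1.21 and Sult1a1 at 0.7136, 0.768 and 0.7295, and Glo1 was at 2.337 at resolution 2. In the lung Sult1a1 was at 0.7617 with cells thinned to 1000 UMIs and at 0.7462 with clusters weighted alike at resolution 2. The counts of genes past the fold depend on the settings more. With a mean of at least 20 CPM there were 290 genes higher and 251 lower in KO in the aorta and 228 higher and 342 lower in the lung. With at least 100 CPM there were 45 higher and 38 lower in the aorta and 29 higher and 39 lower in the lung. The number of genes measured changes with this threshold and is not given here, so these counts cannot be compared as shares. At a ratio of 5 to 4 there were 384 higher and 286 lower in the aorta and 244 higher and 465 lower in the lung, and with a fold of 2 there were 18 higher and 21 lower in the aorta and 21 higher and 19 lower in the lung. Thinning gave 197 higher and 149 lower in the aorta and 203 higher and 155 lower in the lung. A denominator without mitochondrial, ribosomal protein and haemoglobin genes gave 108 lower in the aorta. The lung had 99 higher by the mean of per-cell CPM, and 54 lower in endothelial-like clusters alone. A setting chosen after seeing the data added the unnamed aortic cluster, which cannot change the lung. Beyond the thresholds themselves, the cause of these moves was not tested. Depth limits Glo1 in single clusters most, where the WT side held fewer than 10 UMIs in 9 of 15, against 2 of 60 for the other 4 genes together.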
